A study of Mus musculus with 15 samples.

Results

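The 33 genes described here encode the enzymes of glycolysis, glycogen metabolism and the pentose phosphate pathway, with the lactate transporters, in mouse heart. They were chosen by gene symbol from a list, as protein-coding genes of the deposited table, and all 33 were found among its 54532 genes. One symbol, Aldoa, had 2 rows, of which the one with the higher mean level was used. Of the 33 genes, 31 passed the filter on low values and were tested, whereas Aldoc and Pfkfb1 did not pass. The list holds 16 glycolytic enzymes, 3 regulators of the PFKFB family, 7 glycogen genes, 5 pentose phosphate genes and 2 lactate transporters.

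RNA with poly-A tails from heart tissue of 15 mouse pups was sequenced, with 3 libraries in each of 5 groups, which the labels call biological replicates. All pups were injected under the skin on day 1 after birth with an adeno-associated virus of serotype 9, AAV9, and hearts were taken 12 to 14 days after injection. A cardiac troponin T promoter, active in heart muscle cells, drove the transgene of every virus. Mice of genotype Nat10 flox/flox given AAV9-cTnT-GFP, which encodes green fluorescent protein, are called ff_GFP. Mice of genotype Nat10-CKO, a conditional knockout, received AAV9-cTnT-GFP (CKO_GFP), AAV9-cTnT-NAT10 (CKO_NAT10), AAV9-cTnT-NAT10G641E (CKO_G641E) or AAV9-cTnT-NAT10K209A (CKO_K209A), the last 2 with a substitution in the protein. NAT10 is an enzyme of the nucleolus that acetylates cytidine in RNA, and binding of RNA and acetyltransferase activity are both named in the title of the series. The labels do not say which Cre line made the knockout, nor which substitution affects which activity.

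Glycolysis splits glucose into pyruvate, which lactate dehydrogenase can turn into lactate, and glycogen is the stored form of glucose that muscle breaks down through glycogen phosphorylase. The pentose phosphate pathway branches off after the first steps and supplies reducing power and ribose. Several steps have more than one gene. Pfkm, Pgam2, Eno3 and Pygm encode the forms typical of adult striated muscle, and Ldhb the lactate dehydrogenase subunit that predominates in adult heart. Pfkl, Pfkp, Pgam1, Eno1, Ldha and Pygb encode forms found in many tissues or in the fetus. Heart muscle shifts from glucose and lactate to fatty acids as fuel after birth.

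Between 13218352 and 15912700 reads per library fell in genes, as recovered from the deposited FPKM (fragments counted per gene, scaled to gene length and library size), and mitochondrially encoded genes held between 12.2% of reads in a CKO_K209A library and 19.2% in a CKO_NAT10 library. CKO_GFP replicate 1 stood apart from the other 14 libraries on the second principal component, at -43.8 against -27.4 or above, and each count of members called in a comparison with CKO_GFP is also given without it. Nat10, the targeted gene, measured 4.14, 3.87 and 4.28 FPKM in ff_GFP, 3.47, 3.43 and 3.53 in CKO_GFP, 2.89, 2.05 and 2.92 in CKO_NAT10, 2.58, 2.29 and 2.20 in CKO_G641E and 3.57, 3.24 and 3.82 in CKO_K209A. Its difference between CKO_GFP and ff_GFP was not called (log2 -0.21, SE 0.11, adjusted p = 0.165, by limma), although the groups did not overlap. It was called lower in the groups given NAT10 and G641E than in CKO_GFP (log2 -0.36, adjusted p = 0.0262, and log2 -0.48, adjusted p = 0.00599), and lower in CKO_NAT10 than in ff_GFP (log2 -0.57, adjusted p = 0.0202). The labels do not give the deleted exons or the transgene sequence, so the Nat10 row does not check either, and the groups are named as labelled. Defining markers of heart muscle were abundant in all groups, and the summed level of 10 skeletal muscle markers was at most 4.10 FPKM in any library, with Myh4 at most 0.02. Skeletal muscle shares Eno3, Pgam2 and Pygm with heart. Of the 3 skeletal muscle markers tested, Tnni2 was lower in CKO_GFP than in ff_GFP (log2 -2.30), at 2.34 to 2.42 FPKM in ff_GFP and at most 0.18 in CKO_GFP, and the other 2 were not called.

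Upstream sequence is shown for 4 genes whose levels differed between the groups: both phosphoglycerate mutase genes, which moved in opposite directions, and the Ldha and Slc16a3 genes, which were high in CKO_GFP. Each run is the 250 bases before a start site in RefSeq on GRCm38.p6, on the strand of the gene. Capitals mark matches on either strand to ACGTG, the core of the hypoxia response element, to GGGCGG, the GC box, or to the MEF2 motif.
Pgam2, chr11:5803797-5804046, minus strand: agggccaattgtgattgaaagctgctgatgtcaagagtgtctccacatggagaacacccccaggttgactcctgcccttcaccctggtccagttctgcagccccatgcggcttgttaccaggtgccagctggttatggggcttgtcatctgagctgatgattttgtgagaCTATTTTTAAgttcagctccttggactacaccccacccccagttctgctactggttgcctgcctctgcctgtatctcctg
Pgam1, chr19:41911621-41911870, plus strand: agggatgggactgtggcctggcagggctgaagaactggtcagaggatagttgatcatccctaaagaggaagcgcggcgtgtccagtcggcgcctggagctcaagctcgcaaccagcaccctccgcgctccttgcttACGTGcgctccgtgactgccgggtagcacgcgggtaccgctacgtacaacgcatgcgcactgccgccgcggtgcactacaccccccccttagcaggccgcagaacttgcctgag
Ldha, first of 2 start sites, chr7:46845554-46845803, plus strand: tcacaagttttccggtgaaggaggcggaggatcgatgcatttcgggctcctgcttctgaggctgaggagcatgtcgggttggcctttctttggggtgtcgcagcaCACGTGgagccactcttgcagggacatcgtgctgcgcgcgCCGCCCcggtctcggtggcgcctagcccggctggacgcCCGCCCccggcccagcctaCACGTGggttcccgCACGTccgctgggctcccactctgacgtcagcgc
Slc16a3, chr11:120948817-120949066, plus strand: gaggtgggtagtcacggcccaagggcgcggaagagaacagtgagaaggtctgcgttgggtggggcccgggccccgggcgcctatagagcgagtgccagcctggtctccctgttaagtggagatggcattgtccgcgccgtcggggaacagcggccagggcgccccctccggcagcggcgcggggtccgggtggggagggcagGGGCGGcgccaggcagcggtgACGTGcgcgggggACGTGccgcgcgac
The Pgam2 window held 1 match to MEF2 and none to the other motifs. One match to ACGTG lay in the Pgam1 window. In the Ldha window there were 5 matches to ACGTG, counted on both strands, and 2 to GGGCGG. Each CACGTG marked there gave 2 overlapping matches, 1 on each strand, so the 5 are not separate stretches. The Slc16a3 window held 2 matches to ACGTG and 1 to GGGCGG. Across all 51 windows of the 33 genes, 18 windows (35.3%) held ACGTG and 27 (52.9%) held GGGCGG, against 16.6% and 32.7% of the 32851 windows of the whole table. Among genes called lower in CKO_GFP than in ff_GFP, Pfkm, Pygm and Pygb had ACGTG, and Pgam2, Eno3, Ldhb, Gys1, Taldo1 and Rpia did not. Among those called higher, Pgam1, Ldha and Slc16a3 had it, and Pfkp, Eno1, Gbe1 and Gyg did not. The 4 windows shown thus do not stand for the other members. The MEF2 motif was in 2 of the 51, in those of Pgam2 and Pfkfb1, against 2.92% of all windows. These are matches of letters and were not tested as binding sites.

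How the knockout altered these pathways was the question of CKO_GFP against ff_GFP. The muscle or heart forms Pfkm, Pgam2, Eno3 and Ldhb fell, and at each of these 4 steps another gene rose, namely Pfkp, Pgam1, Eno1 and Ldha. Both abundant glycogen phosphorylase genes fell, Pygm and Pygb. Steps encoded by a single abundant gene, such as Aldoa, Tpi1 and Pkm, were not called. Of 31 genes tested, 7 rose, 9 fell and 15 were not called, with a median log2 change of 0.11 against 0.00 over all genes. A gene was called at an adjusted p under 0.05 from limma, with Benjamini-Hochberg adjustment over the 15321 genes tested. In this comparison 40.5% of all genes were called, 19.8% higher and 20.8% lower, against which the 16 of 31 give no result about the list as a whole. The groups did not overlap for 18 of the 31, against 46.5% of all genes. With all libraries set to equal numbers of assigned reads, a scaling that shifted the all-gene median by 0.12, 4191 genes were higher and 2259 lower in place of 3032 and 3180, and 9 of the members rose and 8 fell. Fewer cells of a type and less RNA per cell cannot be told apart in whole heart.

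**Figure D1:**
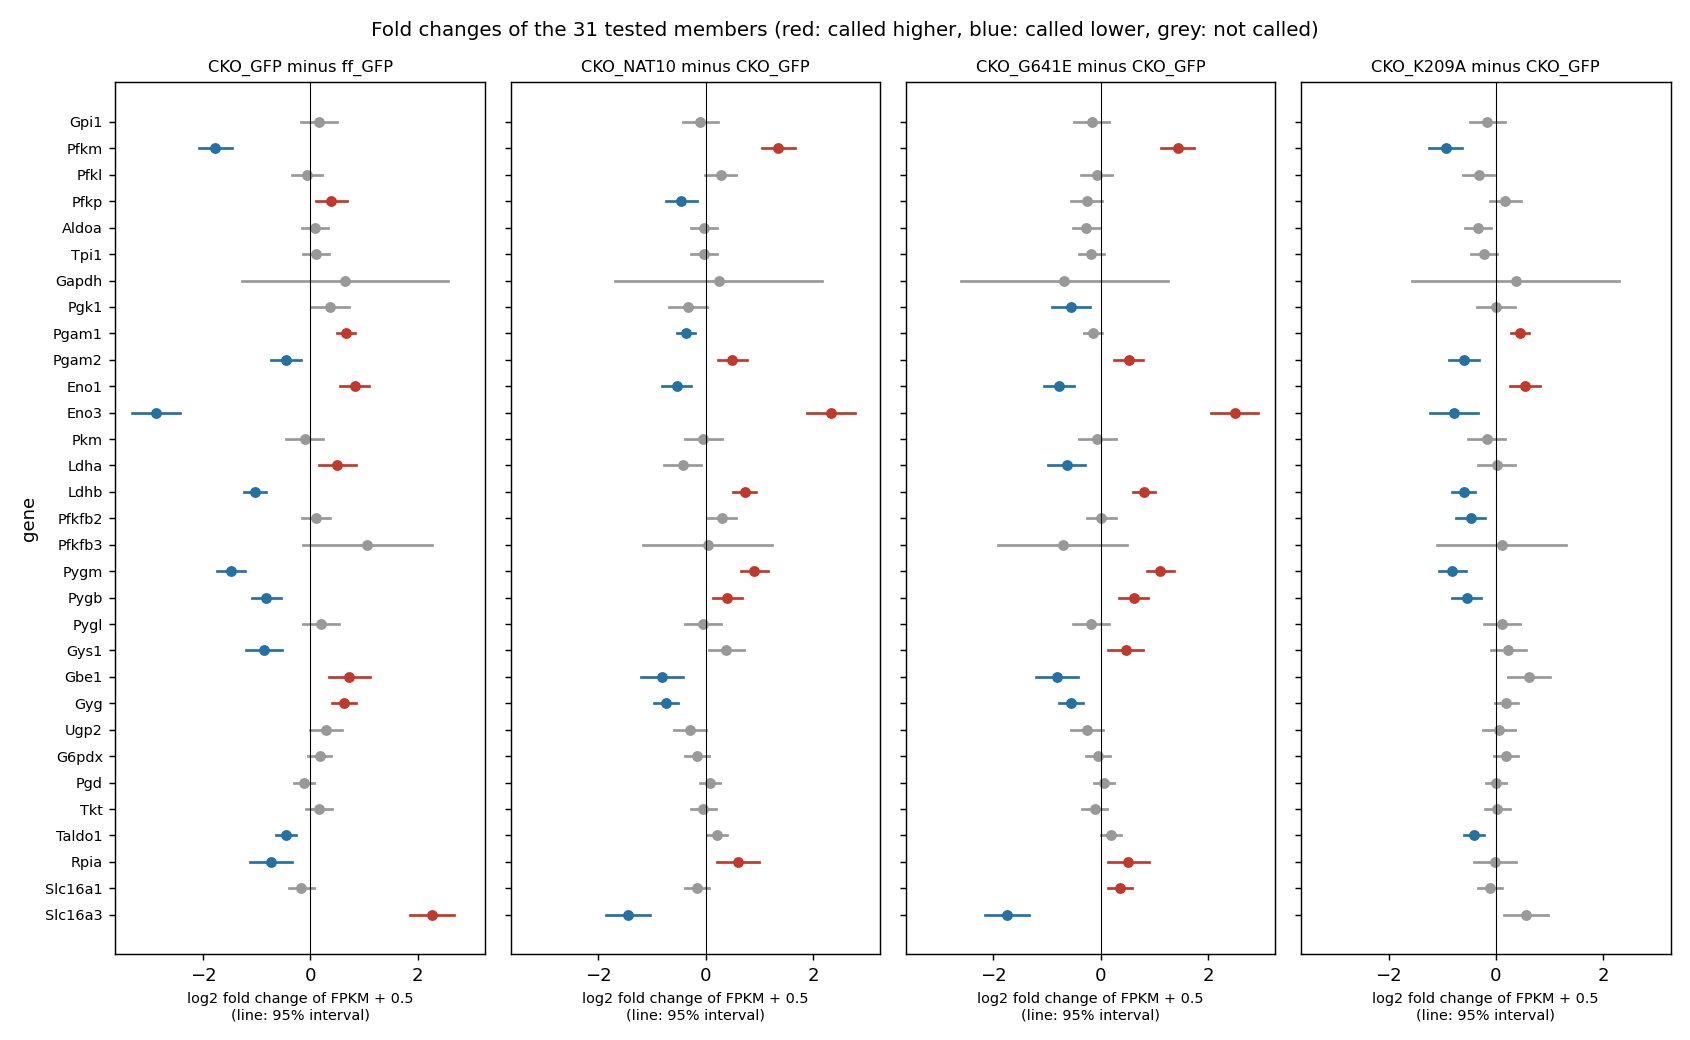
Log2 fold change of FPKM + 0.5 on the x axis for the 31 tested members on the y axis in 4 comparisons, as points with 95% intervals. Eno3 lies at -2.87 in CKO_GFP minus ff_GFP and at 2.34 and 2.49 in the groups given NAT10 or G641E against CKO_GFP, while Slc16a3 lies at 2.26, -1.45 and -1.74.

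Enolase turns 2-phosphoglycerate into phosphoenolpyruvate. Eno3 (ENSMUSG00000060600, chromosome 11, 70657202 to 70662513 on GRCm38), the muscle enolase, measured 1006, 978 and 1049 FPKM in ff_GFP, 216, 102 and 118 in CKO_GFP, 665, 671 and 759.7 in CKO_NAT10, 843, 695 and 800.5 in CKO_G641E and 74.2, 89.4 and 76.0 in CKO_K209A, in the order of replicates 1 to 3. All 6 libraries of CKO_GFP and CKO_K209A were below every library of the other 3 groups, with CKO_GFP replicate 1 the highest of the 6. In CKO_GFP it fell against ff_GFP (log2 -2.87, SE of 0.21, adjusted p = 3.70e-07), the largest fall among the members. Eno1, the enolase of most tissues, measured 59.3, 57.8 and 57.7 FPKM in ff_GFP, 81.8, 120.0 and 114 in CKO_GFP, 79.6, 66.8 and 67.8 in CKO_NAT10, 63.8, 58.2 and 59.5 in CKO_G641E and 137, 149 and 168 in CKO_K209A. Every CKO_GFP library was above every ff_GFP library, and the CKO_K209A libraries were the highest of all. It rose in CKO_GFP (log2 0.83, SE of 0.13, adjusted p = 0.000178). The Eno1 share of the summed FPKM of both genes was 5.45% ± 0.207 in ff_GFP and 43.5% ± 14.1 in CKO_GFP (SD, n = 3), ranging in the latter from 27.5% in replicate 1 to 54.1% in replicate 2. Summed over both genes, enolase went from 1069 ± 35.7 to 251 ± 41.3 FPKM. The rise of Eno1 thus stood beside a sum that was 4.30-fold lower. The retrocopy Eno1b is listed at a mean of 4.92 FPKM beside 89.3 for Eno1, and reads could be split between them.

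Phosphoglycerate mutase makes the substrate of enolase. Pgam2, the muscle form, measured 498, 507 and 548 FPKM in ff_GFP, 435, 347 and 356 in CKO_GFP, 571, 451 and 591 in CKO_NAT10, 587, 498 and 539.9 in CKO_G641E and 229, 236 and 289 in CKO_K209A. The CKO_GFP libraries were below those of ff_GFP, CKO_NAT10 and CKO_G641E, and above those of CKO_K209A. The fall in CKO_GFP was small (log2 -0.46, SE of 0.13, adjusted p = 0.0117), and the call ended with equal assigned reads and with quantile normalization. Pgam1, the form of most other tissues, measured 30.8, 35.9 and 34.8 FPKM in ff_GFP, 55.7, 49.8 and 56.1 in CKO_GFP, 40.6, 42.4 and 42.2 in CKO_NAT10, 51.6, 49.9 and 44.5 in CKO_G641E and 71.9, 74.1 and 73.7 in CKO_K209A. Each CKO_GFP value exceeded each ff_GFP value, and CKO_K209A was higher still, with no overlap. Its level rose in CKO_GFP (log2 0.67, SE of 0.08, adjusted p = 1.85e-05). The Pgam1 share of the 2 genes was 6.13% ± 0.416 in ff_GFP and 12.5% ± 1.13 in CKO_GFP (SD, n = 3), so Pgam2 stayed the more abundant per length.

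Phosphofructokinase is the committed step of glycolysis and a main point of its control. Pfkm, the muscle subunit, measured 295, 270.2 and 321 FPKM in ff_GFP, 103, 67.4 and 91.6 in CKO_GFP, 202, 214 and 249 in CKO_NAT10, 253, 214 and 234 in CKO_G641E and 40.5, 44.6 and 49.3 in CKO_K209A. CKO_K209A was lowest, then CKO_GFP, and neither overlapped any other group. Pfkm fell in CKO_GFP (log2 -1.77, SE of 0.14, adjusted p = 8.19e-07). Pfkl, the liver subunit, measured 29.3, 27.7 and 32.6 FPKM in ff_GFP, 29.9, 27.2 and 28.6 in CKO_GFP, 36.3, 34.5 and 33.7 in CKO_NAT10, 30.3, 25.3 and 25.7 in CKO_G641E and 18.3, 22.0 and 29.0 in CKO_K209A, and ff_GFP and CKO_GFP overlapped (log2 -0.06, SE of 0.13, adjusted p = 0.753). Pfkp, the platelet subunit, measured 12.0, 11.3 and 12.3 FPKM in ff_GFP, 12.6, 19.7 and 15.5 in CKO_GFP, 11.7, 11.5 and 10.9 in CKO_NAT10, 13.9, 14.4 and 11.03 in CKO_G641E and 17.4, 17.2 and 18.9 in CKO_K209A. CKO_GFP replicate 1 lay only just above the ff_GFP libraries, and the rise was called (log2 0.39, SE of 0.13, adjusted p = 0.0339), but not without any one of ff_GFP replicates 1, 2 and 3 or CKO_GFP replicates 2 and 3. Of the summed FPKM of the 3 genes, Pfkm made up 87.6% ± 0.188 in ff_GFP and 65.7% ± 6.08 in CKO_GFP (SD, n = 3). The sum itself went from 337 ± 28.4 to 132 ± 15.9 FPKM.

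Lactate dehydrogenase is a tetramer of A and B subunits. Ldhb measured 687, 709.9 and 708 FPKM in ff_GFP, 305, 365 and 364 in CKO_GFP, 519.6, 553 and 644 in CKO_NAT10, 627, 585 and 589 in CKO_G641E and 209.3, 227 and 244 in CKO_K209A. In both CKO_GFP and CKO_K209A every value was below those of the other 3 groups. Ldhb fell in CKO_GFP (log2 -1.03, SE of 0.10, adjusted p = 3.21e-06). Ldha, the subunit common in fast muscle and in low oxygen, measured 243, 249.81 and 255 FPKM in ff_GFP, 260.4, 427 and 393 in CKO_GFP, 291, 259 and 239 in CKO_NAT10, 247, 208.7 and 228 in CKO_G641E and 318, 341 and 415 in CKO_K209A. CKO_GFP replicate 1 lay near the ff_GFP values and replicates 2 and 3 far above them. The rise was called (log2 0.50, SE of 0.16, adjusted p = 0.0238), but not without ff_GFP replicate 1 or 2, nor without CKO_GFP replicate 2 or 3. The calls of Pfkp and Ldha also ended without the filter on low values and with the 2 groups fitted alone. Ldha made up 26.2% ± 0.250 of the summed FPKM in ff_GFP and 50.6% ± 4.09 in CKO_GFP (SD, n = 3). This share did not overlap between the groups, and included replicate 1 at 46.0%. In log2 units the Ldha to Ldhb ratio was 1.53 higher, the Eno1 to Eno3 ratio 3.71 and the Pgam1 to Pgam2 ratio 1.13. Each had an exact two-sided permutation p = 0.1, the smallest that 3 libraries against 3 allow, and an adjusted p = 0.114 over 56 such tests.

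**Figure D2:**
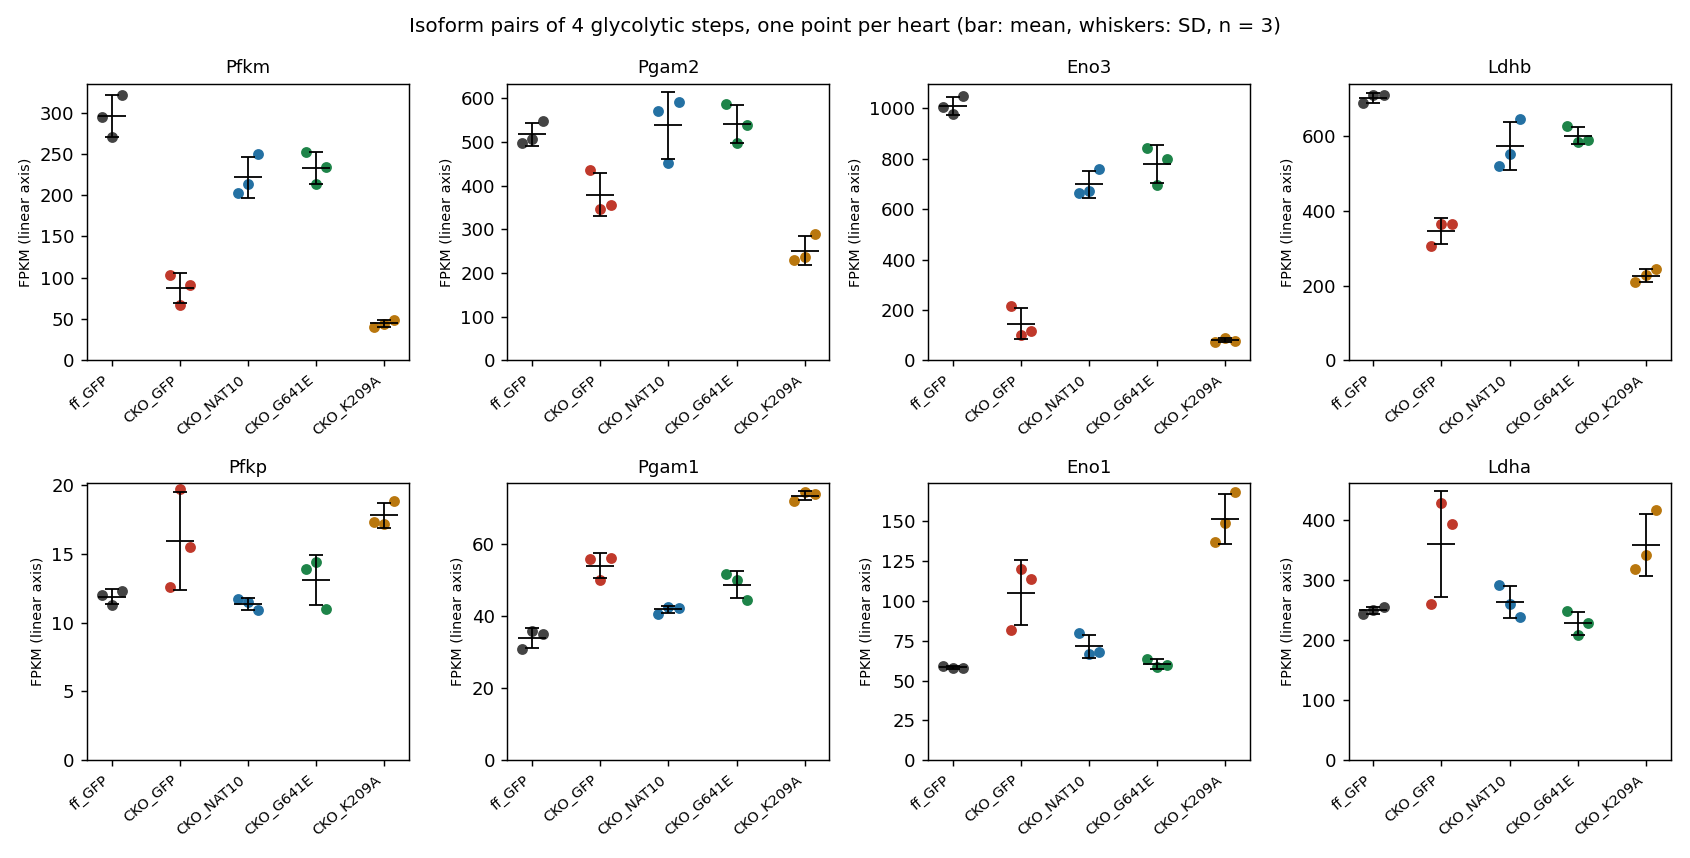
FPKM on a linear y axis for the muscle or heart form (top) and another form (bottom) of 4 glycolytic steps by group on the x axis, with 1 point per heart and the mean ± SD of 3. Eno3 is at 978 FPKM or more in ff_GFP and at 74.2 to 216 in CKO_GFP and CKO_K209A, while Pgam1 and Eno1 are highest in CKO_K209A.

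**Figure D3:**
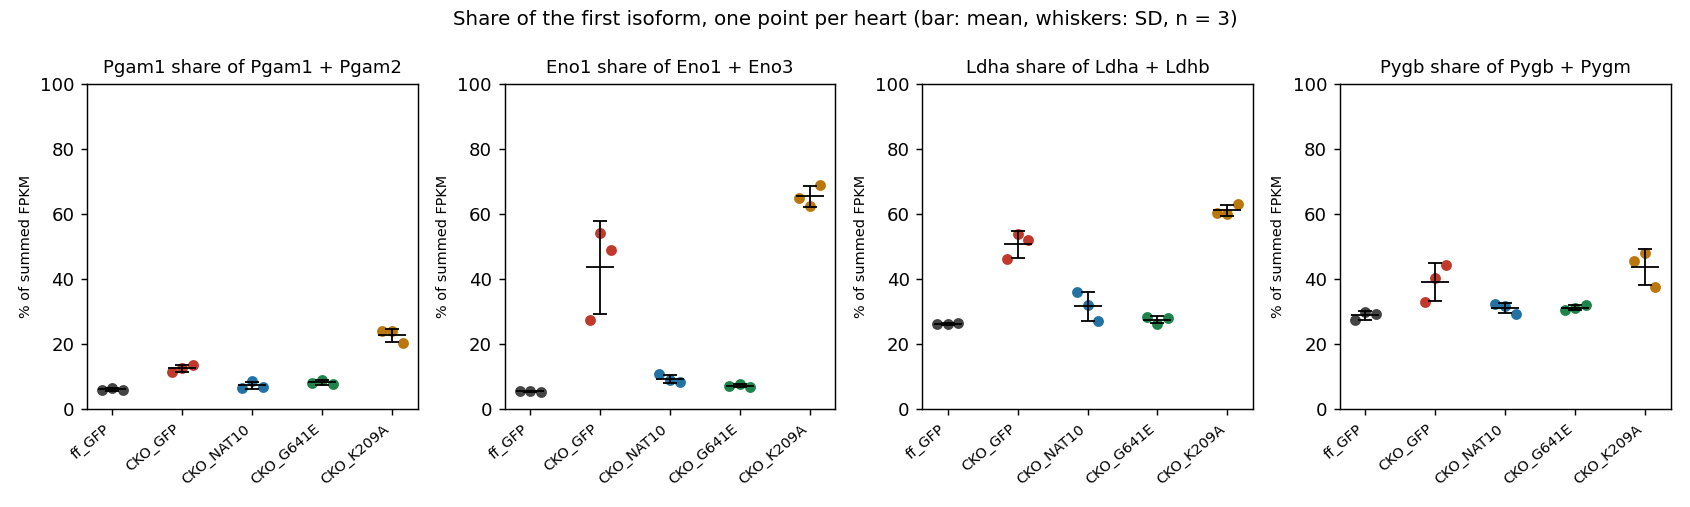
Share of the first gene in the summed FPKM of an isoform pair, in percent on the y axis from 0 to 100, by group on the x axis with 1 point per heart and the mean ± SD of 3. The Eno1 share is 5.45% in ff_GFP, 43.5% in CKO_GFP and 65.4% in CKO_K209A.

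The remaining glycolytic enzymes were not called in CKO_GFP as the values were deposited. Gpi1 (glucose-6-phosphate isomerase), Aldoa (aldolase, which splits the hexose), Tpi1 (triosephosphate isomerase) and Pkm (pyruvate kinase, the last step) had log2 differences from ff_GFP of 0.16, 0.09, 0.10 and -0.10. Aldoa was called higher with quantile normalization (0.41, adjusted p = 0.0123). The 95% intervals of the 4 lay between -0.44 and 0.49. Aldoa was among the most abundant members, at 852 ± 20.3 FPKM in ff_GFP and 915 ± 127 in CKO_GFP (SD, n = 3). Pgk1, phosphoglycerate kinase, which makes the first ATP of the lower pathway, measured 239, 268 and 257 FPKM in ff_GFP, 238, 395 and 379.8 in CKO_GFP, 286, 249.99 and 253 in CKO_NAT10, 250.11, 219 and 208 in CKO_G641E and 304, 309 and 385 in CKO_K209A. CKO_GFP replicate 1 was below every ff_GFP library and replicates 2 and 3 far above them, and the difference was not called (log2 0.37, SE of 0.16, adjusted p = 0.0906). It was called higher with equal assigned reads (0.52, adjusted p = 0.0163) and with quantile normalization (0.52, adjusted p = 0.00853). Without CKO_GFP replicate 1, Pgk1, Gpi1 and Ugp2 were called higher, and 19 of 31 members were called in place of 16. Copies of Tpi1 in the table summed to a mean of 27.2 FPKM beside 261 for the gene, copies of Ldha to 2.41 beside 292 and copies of Pgk1 to 1.46 beside 283, so reads of these genes could be split. Aldoc, the brain aldolase, was at 0.33 FPKM or less in every library and was not tested.

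Gapdh, which oxidizes glyceraldehyde 3-phosphate, measured 4.96, 7.12 and 7.55 FPKM in ff_GFP, 4.40, 39.6 and 6.003 in CKO_GFP, 49.6, 5.89 and 6.11 in CKO_NAT10, 7.14, 5.46 and 6.35 in CKO_G641E and 6.64, 8.38 and 42.5 in CKO_K209A. A high level was seen in 3 libraries from different groups, CKO_GFP replicate 2, CKO_NAT10 replicate 1 and CKO_K209A replicate 3, at 39.6 to 49.6 FPKM, while the other 12 lay between 4.40 and 8.38. The change in CKO_GFP was not called (log2 0.64, SE of 0.89, adjusted p = 0.601, 95% interval -1.28 to 2.57). Over all libraries its mean was 13.8 FPKM, against 261 for Tpi1, a neighbour in the pathway. Gapdh has many processed pseudogenes in the mouse genome, and whether they affected its level here was not tested.

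PFKFB enzymes set the level of fructose 2,6-bisphosphate, the activator of phosphofructokinase. Pfkfb3, the inducible form, measured 1.67, 1.36 and 1.58 FPKM in ff_GFP, 3.97, 4.13 and 3.20 in CKO_GFP, 2.01, 14.7 and 1.68 in CKO_NAT10, 1.70, 3.87 and 1.31 in CKO_G641E and 4.52, 4.57 and 3.22 in CKO_K209A. CKO_NAT10 replicate 2 was more than 3 times any other library. All CKO_GFP libraries were above those of ff_GFP, but the change was not called (log2 1.06, SE of 0.56, adjusted p = 0.149), except with the 2 groups fitted alone (adjusted p = 0.00208). Pfkfb2, the heart form, measured 3.42, 3.50 and 3.88 FPKM in ff_GFP, 3.85, 4.03 and 3.84 in CKO_GFP, 4.33, 5.33 and 5.27 in CKO_NAT10, 3.31, 4.93 and 3.75 in CKO_G641E and 2.64, 2.48 and 2.91 in CKO_K209A, and ff_GFP and CKO_GFP overlapped (log2 0.11, SE of 0.12, adjusted p = 0.526). Pfkfb1, the liver and muscle form, lay between 0.19 and 0.86 FPKM in all libraries and was not tested.

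In glycogen metabolism, 3 of the 7 genes fell in CKO_GFP, 2 rose and 2 were not called, beside 20.8% of all genes called lower and 19.8% higher. Pygm, the muscle glycogen phosphorylase, measured 392.4, 342 and 401 FPKM in ff_GFP, 151, 122 and 135 in CKO_GFP, 233, 248 and 286 in CKO_NAT10, 318, 279.8 and 282 in CKO_G641E and 67.8, 75.0 and 89.2 in CKO_K209A. CKO_GFP and CKO_K209A lay below all other libraries, and CKO_K209A below CKO_GFP. It fell in CKO_GFP (log2 -1.48, SE of 0.12, adjusted p = 8.25e-07). Pygb, the brain form, measured 148, 146 and 165 FPKM in ff_GFP, 73.6, 82.2 and 107 in CKO_GFP, 111, 115 and 119 in CKO_NAT10, 140.0, 127 and 132 in CKO_G641E and 56.9, 68.9 and 53.2 in CKO_K209A, again with CKO_K209A lowest, then CKO_GFP, and no overlap with the other 3 groups. It also fell in CKO_GFP (log2 -0.82, SE of 0.12, adjusted p = 0.000170). Pygl, the liver form, lay between 1.32 and 2.33 FPKM in all libraries and was not called (log2 0.20, SE of 0.15, adjusted p = 0.323).

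Gys1, the muscle glycogen synthase, measured 41.8, 42.5 and 43.7 FPKM in ff_GFP, 17.6, 27.4 and 26.2 in CKO_GFP, 30.5, 30.4 and 31.1 in CKO_NAT10, 38.7, 31.2 and 27.8 in CKO_G641E and 26.0, 25.2 and 31.2 in CKO_K209A. All CKO_GFP values were below all ff_GFP values, with replicate 1 lowest, and Gys1 fell (log2 -0.86, SE of 0.15, adjusted p = 0.000559). Gbe1, the branching enzyme, measured 11.6, 10.2 and 10.6 FPKM in ff_GFP, 12.2, 22.9 and 21.4 in CKO_GFP, 9.99, 9.40 and 11.2 in CKO_NAT10, 10.2, 11.01 and 9.23 in CKO_G641E and 30.4, 28.4 and 25.7 in CKO_K209A. CKO_GFP replicate 1 was close to the ff_GFP libraries and the other 2 were about double that, below all CKO_K209A libraries. Gbe1 rose in CKO_GFP (log2 0.73, SE of 0.18, adjusted p = 0.00565), a call that ended with the 2 groups fitted alone. Gyg, glycogenin, the primer on which glycogen is built, measured 59.7, 63.5 and 53.0 FPKM in ff_GFP, 78.5, 105 and 91.6 in CKO_GFP, 55.7, 54.3 and 53.0 in CKO_NAT10, 62.6, 62.6 and 60.2 in CKO_G641E and 113, 104 and 95.02 in CKO_K209A. The CKO_GFP and CKO_K209A libraries were above all others, and Gyg rose (log2 0.63, SE of 0.10, adjusted p = 0.000249). Ugp2, which makes UDP-glucose, lay between 62.7 and 101 FPKM in all libraries and was not called (log2 0.29, SE of 0.14, adjusted p = 0.110 by limma). It was called higher with equal assigned reads (0.44, adjusted p = 0.0111) and without CKO_GFP replicate 1. Gys1, Pygm and Pygb thus fell while Gbe1 and Gyg rose.

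Of the 5 pentose phosphate genes, 2 of the non-oxidative branch fell and 3 were not called, beside the 20.8% of all genes called lower. Rpia, ribose-5-phosphate isomerase, measured 2.77, 2.54 and 2.16 FPKM in ff_GFP, 1.75, 0.863 and 1.37 in CKO_GFP, 2.30, 1.99 and 2.41 in CKO_NAT10, 2.07, 2.001 and 2.10 in CKO_G641E and 1.30, 0.934 and 1.64 in CKO_K209A, all CKO_GFP libraries being below those of ff_GFP (log2 -0.73, SE of 0.18, adjusted p = 0.00512). Taldo1, transaldolase, measured 44.0, 47.6 and 46.5 FPKM in ff_GFP, 32.4, 34.0 and 34.0 in CKO_GFP, 39.2, 36.0 and 42.2 in CKO_NAT10, 39.4, 37.6 and 37.9 in CKO_G641E and 23.5, 23.1 and 28.9 in CKO_K209A. Here too CKO_GFP was below ff_GFP without overlap (log2 -0.45, SE of 0.09, adjusted p = 0.000931), and CKO_K209A was lowest. G6pdx and Pgd, the dehydrogenases of the oxidative branch, and Tkt, transketolase, had log2 differences of 0.17, -0.11 and 0.16. Their adjusted p by limma was 0.200, 0.347 and 0.263. Their 95% intervals were -0.05 to 0.39, -0.29 to 0.08 and -0.07 to 0.40.

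Of the lactate transporters, Slc16a3, which encodes MCT4 and exports lactate from glycolytic cells, had the largest rise of all members. It measured 0.654, 0.913 and 0.856 FPKM in ff_GFP, 3.98, 7.56 and 6.29 in CKO_GFP, 2.06, 1.58 and 1.77 in CKO_NAT10, 1.11, 1.64 and 1.39 in CKO_G641E and 8.08, 8.07 and 10.2 in CKO_K209A. Every library of CKO_GFP and CKO_K209A was above every library of the other groups. The rise in CKO_GFP was 4.80-fold on the log2(FPKM + 0.5) scale (log2 2.26, SE of 0.19, adjusted p = 1.31e-06). Slc16a1, which encodes MCT1 and takes up lactate in heart, measured 72.3, 70.1 and 66.4 FPKM in ff_GFP, 59.3, 61.1 and 65.7 in CKO_GFP, 53.4, 50.9 and 63.1 in CKO_NAT10, 83.6, 82.4 and 73.7 in CKO_G641E and 62.6, 62.3 and 48.8 in CKO_K209A. Although CKO_GFP lay below ff_GFP without overlap, the change was not called (log2 -0.16, SE of 0.11, adjusted p = 0.239). Slc16a3 made up 1.15% of the summed FPKM of the 2 transporters in ff_GFP and 8.68% in CKO_GFP.

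**Figure D4:**
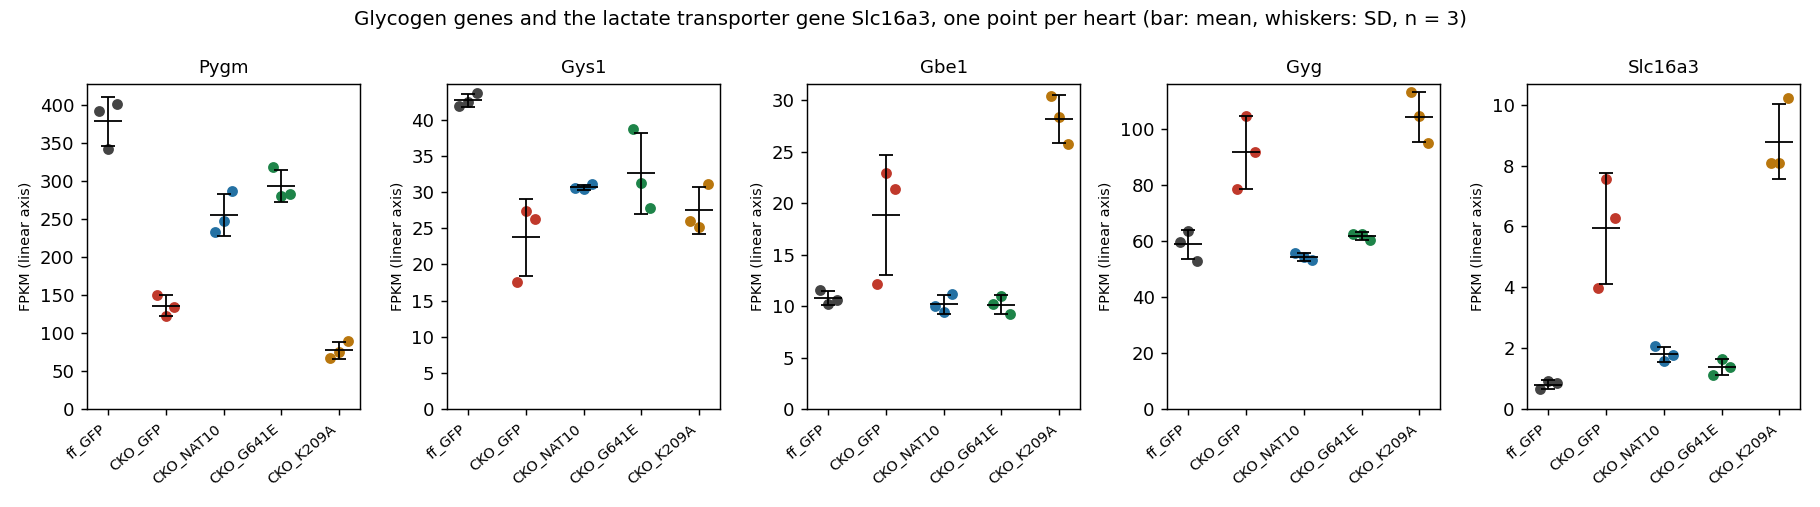
FPKM on a linear y axis for 4 glycogen genes and Slc16a3 by group on the x axis, with 1 point per heart and the mean ± SD of 3. Pygm and Gys1 are lower in CKO_GFP than in ff_GFP, whereas Gbe1, Gyg and Slc16a3 are higher, and CKO_GFP replicate 1 is the lowest of its group for Gys1, Gbe1, Gyg and Slc16a3.

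Other genes of the same pathways are given as lists, whose counts stand beside 19.8% of all genes called higher and 20.8% lower. Of 21 tested genes among 23 further glycogen genes, 10 fell and 2 rose in CKO_GFP. Phkg1, the muscle catalytic subunit of phosphorylase kinase, fell from 2.40 to 0.220 FPKM (adjusted p = 1.36e-05). The protein phosphatase targeting subunit gene Ppp1r3d fell by 1.75 and the ubiquitin ligase gene Nhlrc1 by 1.07 in log2 units. The 2 that rose, named after their values were seen, were Stbd1 (0.85) and Ppp1r3g (0.77). Among 11 tested isoforms, transporters and regulators of glycolysis, 3 rose and 2 fell. Fbp2, the muscle fructose bisphosphatase that opposes phosphofructokinase, fell from 30.4 to 1.93 FPKM (log2 -3.77, SE of 0.27, adjusted p = 3.82e-07). The glucose transporter genes Slc2a1 and Slc2a4 changed by 2.68 and -1.84, and Hif1a, which encodes a subunit of hypoxia-inducible factor (HIF), rose by 0.69. The third gene that rose was Eno2, the neuronal enolase (0.64). The hexokinase genes Hk1 and Hk2, which start glycolysis and are named here after their values were seen, were not called (-0.18 and -0.19). Of 7 further pentose phosphate genes 3 rose, among them Pgls, which encodes 6-phosphogluconolactonase (0.54), and the ribose phosphate kinase genes Prps1 (0.57) and Prps2 (0.39). Of 6 genes of pyruvate and lactate handling 2 fell, Mpc2 of the mitochondrial pyruvate carrier (-1.19) and Ldhd (-1.20). Among 14 HIF targets outside glycolysis 6 rose and none fell, beside the 19.8% of all genes called higher, led by Bhlhe40 (1.80), Car9 (1.47), Adm (1.18) and Bnip3 (1.14).

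Markers of cell types moved with these groups. All 8 heart muscle markers fell in CKO_GFP (median log2 -0.94), and their summed level was 23680 to 25529 FPKM in ff_GFP and 10035 to 14781 in CKO_GFP. The sum was 18163 to 21929 in CKO_NAT10, 19920 to 22924 in CKO_G641E and 8471 to 10811 in CKO_K209A. Its largest terms were Actc1, at 10625 to 11069 FPKM in ff_GFP and 3125 to 6900 in CKO_GFP, and Myh6. Myh6 was at 5208 to 6569 and 2314 to 3142 FPKM. Ttn, of the same list, fell less, from 28.2 to 32.2 FPKM in ff_GFP to 22.9 to 26.3 in CKO_GFP. Ratios to this sum thus follow mainly Actc1 and Myh6, and ratios to single markers were not made. Of 8 fibroblast markers 5 rose, with sums of 540 to 622 FPKM in ff_GFP and 835 to 1001 in CKO_GFP, and 4 of 8 macrophage markers rose, with sums of 108 to 148 and 165 to 266. Of 8 endothelial markers 5 fell, with sums of 357 to 371 FPKM in ff_GFP and 274 to 321 in CKO_GFP. Of 7 smooth muscle and pericyte markers 2 rose and 3 fell, and none of 7 red blood cell markers was called. Per unit of summed heart muscle markers, a ratio chosen after the values were seen, Eno3 differed by -1.78 in log2 units in CKO_GFP, Pfkm by -0.68 and Pygm by -0.38, each without overlap. On the same scale Ldhb differed by 0.07, Pygb by 0.28, Gys1 by 0.23 and Rpia by 0.14, all with overlap, and Pgam2 by 0.65 and Taldo1 by 0.64 without it. In CKO_K209A against CKO_GFP 3 of the 8 heart muscle markers, 2 of the 8 macrophage markers, 1 of the 8 endothelial markers and 1 of the 8 fibroblast markers fell. There Eno3 differed by -0.57 and Pfkm by -0.73 per unit of heart muscle markers without overlap, and Pygm by -0.60, Ldhb by -0.39 and Pgam2 by -0.38 with overlap. The part of cell composition in these results was not tested further.

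The comparison of CKO_NAT10 with CKO_GFP asked whether NAT10 delivered by the virus changed these genes in knockout hearts. The muscle or heart forms Pfkm, Pgam2, Eno3, Ldhb and Pygm were higher than in CKO_GFP, and Pfkp, Pgam1 and Eno1 were lower. Of 31 genes 7 rose, 6 fell and 18 were not called, against 15.1% of all genes called higher and 16.1% lower. Without CKO_GFP replicate 1, 6 were higher and 10 lower, with Gpi1, Pgk1, Ldha and Ugp2 added to the calls and Pygb lost. The groups did not overlap for 17 of the 31, against 38.9% of all genes. Of the markers, 6 of 8 for heart muscle and 6 of 8 for endothelium rose, while of 8 for fibroblasts 5 fell and 1 rose, and 2 of 8 for macrophages fell. Per unit of summed heart muscle markers, Eno3 differed by 1.59 and Pfkm by 0.61 without overlap, and Pygm by 0.16, Ldhb by -0.02 and Pgam2 by -0.25 with overlap. This comparison shares the CKO_GFP libraries with the one above, so the directions are not independent of it. Eno3 rose from 145 to 699 FPKM (log2 2.34, SE of 0.21, adjusted p = 7.15e-06), Pfkm from 87.2 to 222 FPKM (log2 1.36, SE of 0.14, adjusted p = 2.23e-05), Pygm from 136 to 256 FPKM (log2 0.91, SE of 0.12, adjusted p = 0.000109) and Ldhb from 345 to 572 FPKM (log2 0.73, SE of 0.10, adjusted p = 0.000129). Pgam2 rose by 0.50, Rpia by 0.61 and Pygb by 0.41. Slc16a3 fell from 5.94 to 1.81 FPKM (log2 -1.45, SE of 0.19, adjusted p = 0.000125). Gbe1 fell by 0.81, Gyg by 0.74, Eno1 by 0.54, Pfkp by 0.45 and Pgam1 by 0.36. Ldha (-0.43, adjusted p = 0.0590) and Gys1 (0.39, adjusted p = 0.0686) were not called. With these 2 groups fitted alone, 7 of the 13 calls were kept, and Pfkp, Pgam2, Eno1, Pygb, Gbe1 and Rpia were lost. Single libraries decided the calls of Pfkp, Pygb and Rpia, each lost without CKO_GFP replicate 2 or CKO_NAT10 replicate 3, Pygb also without CKO_GFP replicate 1, Rpia without CKO_NAT10 replicate 1, and Pfkp and Pygb without CKO_NAT10 replicate 2.

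Against ff_GFP, the hearts given NAT10 differed in 2 members, beside 2.47% of all genes called, 0.79% higher and 1.68% lower. For 15 of the 31 the groups did not overlap, against 25.4% of all genes. With equal assigned reads 202 genes were higher and 81 lower in place of 121 and 257 (with quantile normalization 142 and 190), and Pgam1 was called higher in place of Pygm lower. Pygm was lower (log2 -0.57, SE of 0.12, adjusted p = 0.0258) and Slc16a3 higher (log2 0.82, SE of 0.19, adjusted p = 0.0411). The call of Slc16a3 ended without any single one of the 6 libraries. That of Pygm held without ff_GFP replicate 2 and without CKO_NAT10 replicate 3, and ended without each of the other 4. Eno3 was at 699 ± 53.0 FPKM against 1011 ± 35.8 (SD, n = 3) without overlap, but was not called (log2 -0.54, SE of 0.21, adjusted p = 0.220), except with the 2 groups fitted alone. Pfkm was also not called (log2 -0.41, SE of 0.14, adjusted p = 0.159), nor was Eno1 (log2 0.29, SE of 0.13, adjusted p = 0.295). The 95% interval of the Eno3 difference was -0.98 to -0.09, and that of Pfkm -0.72 to -0.11.

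The comparison of CKO_G641E with CKO_GFP asked the same of NAT10 with the G641E substitution. Of 31 genes 9 rose, 6 fell and 16 were not called, against 15.4% of all genes called higher and 15.9% lower. Without CKO_GFP replicate 1, 8 were higher and 10 lower, with Gpi1, Pfkp, Aldoa and Tpi1 added to the calls and Gys1 lost. The groups did not overlap for 16 of the 31, against 39.9% of all genes. It too shares the CKO_GFP libraries, and 6 of 8 heart muscle markers rose and 5 of 8 fibroblast markers fell, while of 8 endothelial markers 5 rose and 1 fell and 1 of 8 macrophage markers fell. Per unit of summed heart muscle markers, Eno3 differed by 1.59, Pfkm by 0.53 and Pgam2 by -0.39 without overlap, and Pygm by 0.21 and Ldhb by -0.10 with overlap. Eno3 rose from 145 to 779 FPKM (log2 2.49, SE of 0.21, adjusted p = 3.95e-06), Pfkm from 87.2 to 233 FPKM (log2 1.43, SE of 0.14, adjusted p = 1.30e-05), Pygm from 136 to 293 FPKM (log2 1.11, SE of 0.12, adjusted p = 2.19e-05) and Ldhb from 345 to 600.1 FPKM (log2 0.80, SE of 0.10, adjusted p = 5.71e-05). Pygb rose by 0.62, Pgam2 by 0.52, Rpia by 0.51, Gys1 by 0.46 and Slc16a1 by 0.36. Slc16a3 fell from 5.94 to 1.38 FPKM (log2 -1.74, SE of 0.19, adjusted p = 2.74e-05). Gbe1 fell by 0.81, Eno1 by 0.77, Ldha by 0.63, Gyg by 0.55 and Pgk1 by 0.55. With these 2 groups fitted alone, 10 of the 15 calls were kept, and Pgk1, Ldha, Gys1, Gbe1 and Rpia were lost. The calls of Pgk1, Gys1, Rpia and Slc16a1 each ended without single libraries. For Pgk1 these were CKO_GFP replicates 2 and 3 and CKO_G641E replicates 2 and 3. For Gys1 they were CKO_GFP replicate 1 and CKO_G641E replicates 1 and 2. Slc16a1 was lost without CKO_GFP replicate 2 or CKO_G641E replicate 1 or 2, and Rpia without any of these libraries other than CKO_GFP replicate 1.

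Directly against CKO_NAT10, none of the 31 members was called in CKO_G641E by limma, and 8 of all genes (0.0522%) were, 0.0326% higher and 0.0196% lower. With equal assigned reads 1 gene was higher and 3 lower in place of 5 and 3, and with quantile normalization 4 and 5. For 8 members the groups did not overlap, against 15.4% of all genes. At an unadjusted p under 0.05 there were 5 members and 1031 genes. For Eno3 the difference was 0.16 with a 95% interval of -0.29 to 0.60, for Pfkm 0.08 (-0.23 to 0.38), for Eno1 -0.23 (-0.51 to 0.04) and for Slc16a3 -0.30 (-0.71 to 0.12). Slc16a1 had the smallest p among the members and differed by 0.52 (0.29 to 0.75, adjusted p = 0.162), and was higher in all 3 CKO_G641E libraries than in any CKO_NAT10 library. These intervals do not show that both proteins act alike on the genes.

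The comparison of CKO_K209A with CKO_GFP asked whether NAT10 with the K209A substitution changed these genes. The forms Pfkm, Pgam2, Eno3, Ldhb and Pygm were lower still than in CKO_GFP, and Pgam1 and Eno1 were higher. Of 31 genes 8 fell, 2 rose and 21 were not called, against 7.93% of all genes called, 5.76% lower and 2.17% higher. Without CKO_GFP replicate 1, 10 fell and 2 rose, Aldoa and Tpi1 being added. The groups did not overlap for 12 of the 31, against 23.2% of all genes. Pfkm fell from 87.2 to 44.8 FPKM (log2 -0.94, SE of 0.14, adjusted p = 0.00263), Pygm from 136 to 77.3 FPKM (log2 -0.81, SE of 0.12, adjusted p = 0.00199), Eno3 from 145 to 79.9 FPKM (log2 -0.79, SE of 0.21, adjusted p = 0.0350) and Ldhb from 345 to 227 FPKM (log2 -0.60, SE of 0.10, adjusted p = 0.00364). Pgam2 fell by 0.59, Pygb by 0.54, Pfkfb2 by 0.47 and Taldo1 by 0.41. Eno1 rose from 105 to 151 FPKM (log2 0.54, SE of 0.13, adjusted p = 0.0220) and Pgam1 from 53.9 to 73.3 FPKM (log2 0.44, SE of 0.08, adjusted p = 0.00528). Slc16a3 (0.56, adjusted p = 0.0929) and Gbe1 (0.62, adjusted p = 0.0525) were not called. The Eno1 share of enolase was 65.4% ± 3.23 and the Ldha share 61.1% ± 1.68 (SD, n = 3), both without overlap with CKO_GFP. Pfkm made up 52.4% of phosphofructokinase.

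With CKO_K209A and CKO_GFP fitted alone, none of the 10 members and 21 of all genes were called by limma. At an unadjusted p under 0.05 that fit gave 12 members and 2395 genes. With equal assigned reads, 979 genes were higher and 478 lower in place of 333 and 882 (with quantile normalization 547 and 559), and among the members Gbe1, Gyg and Slc16a3 were called higher while Pgam2, Eno3, Pfkfb2 and Taldo1 lost their calls. Without CKO_K209A replicate 1 or replicate 2, 5 members were called each time. Pfkm, Pgam1, Ldhb and Pygm were called under every omission of 1 library, and Eno3 was lost without any single CKO_K209A library. Eno1 was lost without CKO_K209A replicate 2 or 3, and Pgam2 and Taldo1 without CKO_K209A replicate 1 or 2. Pygb was lost without CKO_GFP replicate 3 or CKO_K209A replicate 1 or 3, and Pfkfb2 without CKO_GFP replicate 2 or 3 or CKO_K209A replicate 1 or 2.

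Against CKO_NAT10, the CKO_K209A hearts differed in 19 of 31 members, with 8 higher and 11 lower, beside 41.5% of all genes called, 20.3% higher and 21.2% lower. Of the markers, 7 of 8 for heart muscle and 6 of 8 for endothelium were lower, and of 8 for fibroblasts 4 were higher and 2 lower. Relative to summed heart muscle markers, Eno3 differed by -2.16, Pfkm by -1.34, Pygm by -0.76 and Taldo1 by 0.33 in log2 units without overlap. With overlap, Ldhb differed by -0.36, Pgam2 by -0.13, Pygb by 0.02, Pfkfb2 by 0.08, Rpia by 0.15 and Pfkl by 0.35. Of the 31, 21 did not overlap between the groups, against 54.4% of all genes. Eno3 was lower (log2 -3.12, SE of 0.21, adjusted p = 2.01e-07), as were Pfkm (log2 -2.29, SE of 0.14, adjusted p = 1.40e-07), Pygm (log2 -1.72, SE of 0.12, adjusted p = 2.73e-07) and Ldhb (log2 -1.33, SE of 0.10, adjusted p = 4.34e-07). Pgam2 fell by 1.09, Pygb by 0.95, Pfkfb2 by 0.78, Taldo1 by 0.63, Rpia by 0.63 and Pfkl by 0.61. Slc16a3 was higher (log2 2.01, SE of 0.19, adjusted p = 3.65e-06), and Gbe1 (1.42), Eno1 (1.08), Gyg (0.93), Pgam1 (0.80) and Pfkp (0.62) were higher as well. Ldha rose by 0.44 and G6pdx by 0.35. Aldoa was lower by 0.30, a call that ended under equal assigned reads and turned positive with quantile normalization. Single libraries decided 4 calls. Aldoa was lost without any CKO_NAT10 library or CKO_K209A replicate 1 or 2, and Ldha without CKO_NAT10 replicate 2 or 3 or CKO_K209A replicate 2 or 3. G6pdx was lost without CKO_NAT10 replicate 1 or CKO_K209A replicate 2, and Rpia without CKO_K209A replicate 2. With equal assigned reads 4287 genes were higher and 2442 lower in place of 3111 and 3252, and 10 members were called each way. Of 11 further glycolysis genes 2 were higher and 4 lower, of 21 further glycogen genes 5 were higher and 9 lower, and of 14 HIF targets 9 were higher and 1 lower.

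**Figure D5:**
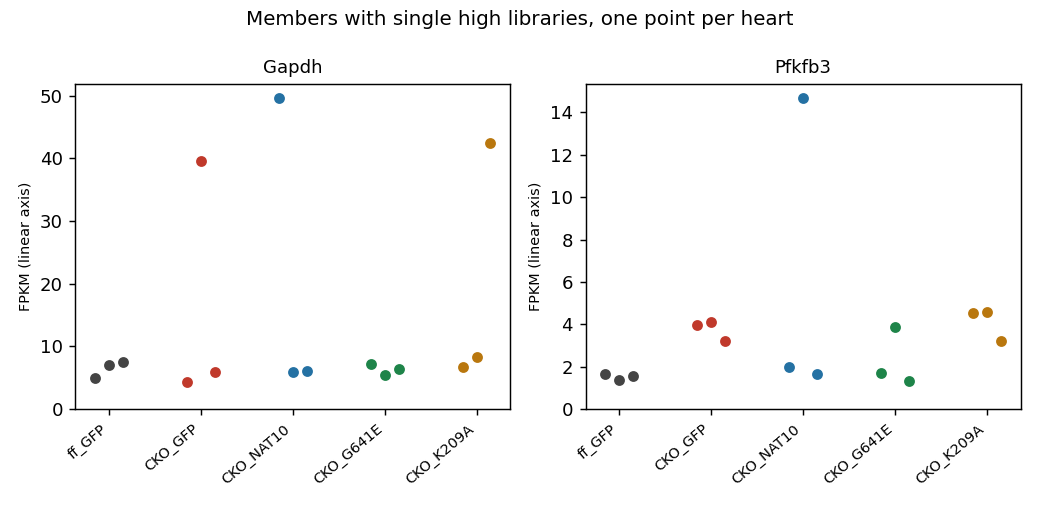
FPKM on a linear y axis for Gapdh and Pfkfb3 by group on the x axis, with 1 point per heart. For Gapdh 1 library in each of CKO_GFP, CKO_NAT10 and CKO_K209A lies between 39.6 and 49.6 FPKM while the other 12 lie between 4.40 and 8.38, and for Pfkfb3 CKO_NAT10 replicate 2 lies at 14.7.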

How the data were processed

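Alignment used HISAT2 2.0.5 on GRCm38/mm10 and quantification featureCounts 1.5.0-p3, per the submitters' processing notes, which also list CASAVA and DESeq2 1.20.0 with no role. The values the authors deposited were FPKM with gene lengths, per the file headers, and how the FPKM were computed is not given in the sources used here. Values were multiplied by gene length and divided by a unit for each library, which was fitted to the same values. After this 100% of values came to a whole number of reads (tolerance 0.05 reads), from which each library's depth was taken. Tests used limma 3.58.1 in R 4.3.3 on log2(FPKM + 0.5), keeping the 15321 genes that reached 0.5 FPKM in 3 or more of 15 libraries. The 5 groups entered 1 model with 10 residual degrees of freedom and a trend of variance on level. Calls needed an adjusted p under 0.05, by Benjamini-Hochberg over every gene tested, in each of 7 comparisons. Folds of weakly expressed genes are understated by the pseudocount. SE and 95% intervals are those of the moderated model.

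The members and lists were chosen with earlier results of these data known. All members may be named, with every library given for members called anywhere with a log2 change of at least 0.5 and for their isoforms, and up to 4 genes of each further list, of which 1 glycogen gene is not reported here. Genes of these lists named beyond that rule (Eno2, Hk1, Hk2, Stbd1 and Ppp1r3g) were chosen after their values were seen. Ratios of isoforms were compared with exact permutation tests. The procedure was run on simulated data in which a small set of genes changed in CKO_GFP and all libraries were scaled alike. That simulation cannot show how calls behave when many genes change or when the scaling differs between libraries. Precision is limited by 3 libraries per group and, for the least abundant tested members, by few reads (at least 48 per library for Slc16a3 and 62 for Rpia). Samples with the same replicate number did not deviate together in every pair, so the fit was made without pairing.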

Additional observations from a re-analysis of the deposited data

How the results depend on the processing

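In CKO_GFP minus ff_GFP, 12 of 16 member calls were kept under all 13 alternatives, and in CKO_K209A minus CKO_NAT10 15 of 19. The numbers were 7 of 13 for CKO_NAT10, 9 of 15 for CKO_G641E and 0 of 10 for CKO_K209A, each against CKO_GFP, and 0 of 2 for CKO_NAT10 against ff_GFP. With the 2 groups fitted alone, CKO_NAT10 minus CKO_GFP had 2460 genes and 7 members called in place of 4776 and 13, CKO_G641E minus CKO_GFP 2767 genes in place of 4793, and CKO_K209A minus CKO_GFP 21 genes and 0 members in place of 1215 and 10. Fewer samples entered these fits. CKO_G641E minus CKO_NAT10 had 8 genes called, 4 with a pseudocount of 0.1, 4 with equal assigned reads and 0 with the groups alone, where 1435 had an unadjusted p under 0.05. Leaving out 1 library gave 0 in every case. CKO_NAT10 minus ff_GFP had 2 members called, 1 with a pseudocount of 1, 0 without the filter, 0 with quantile normalization and 4 with the groups alone. Leaving out 1 library gave 0 to 1 members and 89 to 281 genes there, and 5 to 12 members and 426 to 1658 genes in CKO_K209A minus CKO_GFP. The cause of these shifts was not tested. Aldoa in CKO_K209A minus CKO_NAT10 turned from -0.30 to 0.18 with quantile normalization. Pfkfb3 in CKO_NAT10 minus CKO_GFP turned from 0.04 to -0.86, and was called, without CKO_NAT10 replicate 2, and ranged up to 0.54 without another library. The replicate block gave 16, 13, 15, 10, 0, 19 and 2 members called in the 7 comparisons, as without it, and 6127 genes in CKO_GFP minus ff_GFP. It ended the call of Ldha and added Ugp2 in CKO_K209A minus CKO_NAT10. The numbers did not pair the samples, with correlations of same-numbered deviations from -0.15 to 0.36.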

Other observations

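The 3 libraries with high Gapdh came from 3 groups, CKO_GFP replicate 2, CKO_NAT10 replicate 1 and CKO_K209A replicate 3. Among the 15321 genes tested, Gapdh was the only one at more than 3 times the highest other library in all of these 3, and 17 genes (0.111%) were above every other library in all 3. Gapdh rested on 283 to 2993 reads per library. The 3 listed copies of Gapdh summed to a mean of 0.144 FPKM. Gapdh is often used as a reference gene. These comparisons were made after the values had been seen.

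Glycogen phosphorylase, as the sum of Pygm, Pygb and Pygl, stood highest in ff_GFP at 533 ± 40.01 FPKM, followed by CKO_G641E at 428 ± 28.0, CKO_NAT10 at 372 ± 30.9, CKO_GFP at 225 ± 18.3 and CKO_K209A at 139 ± 10.5 (SD, n = 3). Enolase summed over Eno1 and Eno3 was 231 ± 17.7 FPKM in CKO_K209A and 251 ± 41.3 in CKO_GFP, with overlap, although Eno1 and Eno3 each differed between these groups.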
